A study of Rattus norvegicus with 12 samples.

Results

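The genes described here are 8 markers of peripheral glia, the Schwann cells that wrap axons and the satellite glia that surround sensory neurons: Sox10, Foxd3, Erbb3, Cdh19, Fabp7, S100b, Pmp22 and Mbp. They were taken as all probes of the arrays, other than control spots, whose gene name is one of these symbols. This gave 10 probes of 30367 on the array, and 7 of the 8 genes entered the tests among 19347 genes. The missing one was Cdh19, which lay well above background (the scanner program's flag) on only 2 of the 12 arrays.

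Pituitaries of fetal Wistar rats at gestational day 18 were measured on 12 one-colour arrays, in 4 groups of 3. The groups were male fetuses exposed to TCDD through the mother, male controls, female fetuses exposed in the same way, and female controls. TCDD (2,3,7,8-tetrachlorodibenzo-p-dioxin) acts through the aryl hydrocarbon receptor, and the series title asks what it does to fetal pituitary mRNAs. The labels used here give no dose or day of dosing, leave litters unnamed and do not state whether glands were pooled, so the p-values measure only the spread between these samples.

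Peripheral glia arise from the neural crest. Sox10 keeps crest cells in the glial lineage, axons then supply neuregulin to glial ErbB receptors, and mature Schwann cells go on to produce myelin proteins. In ganglia, satellite glia stay around the neuron bodies and share most of the early genes. The pituitary has other cells that use some of these genes: folliculostellate cells of the anterior lobe contain S100b, and the glia of the posterior lobe (pituicytes) belong to the brain's own glial lineage. Oligodendrocytes of the brain also use Sox10 and Mbp, and melanocytes use Sox10.

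The exposure labels were checked with Cyp1a1 and Ahrr, targets of the aryl hydrocarbon receptor. Cyp1a1 had processed intensities from 201 to 461 on the 6 exposed arrays, against 4.69 to 7.35 on the 6 controls, and Ahrr had 1020 to 1620, against 12.2 to 36.2 (limma, adjusted p over both sexes = 1.07e-05 for Cyp1a1 and 5.11e-06 for Ahrr). Between 75.2% and 78.4% of spots lay well above background on an array and 0 were saturated. The 3 slides do not hold the groups evenly: slide 1 has all 3 male controls and male TCDD 1, slide 2 has male TCDD 2 and 3 with female control 1 and 2, and slide 3 has female control 3 and all 3 exposed females. Each slide was scanned as 1 run, so slide and scan cannot be told apart.

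The arrays also fell into separate sets by a gene of sensory neurons. Avil (advillin, an actin-binding protein of sensory ganglion neurons) had intensities of 3490, 2133 and 102 in exposed males, against 84.4, 1185 and 91.2 in control males. It had 1933, 90.4 and 1416 in exposed females, against 83.7, 2039 and 74 in control females. Thus 6 arrays lay between 1180 and 3490 and the other 6 between 74 and 102, with no array between. The 6 higher arrays were male TCDD 1 and 2, female TCDD 1 and 3, male control 2 and female control 2, that is 4 exposed arrays and 2 controls. Of 25 sensory ganglion neuron genes, 24 lay higher on each of these 6 arrays than on any of the other 6, the exception being Ntrk3. Among all genes 7.92% did so. Avil, which made the sets, is itself 1 of the 24 and part of the list's mean. That mean level ran from 0.22 to 1.61 on the 6 higher arrays and from -3.46 to -2.88 on the 6 lower ones. By exposure the same mean ran from -3.31 to 1.61 on exposed arrays and from -3.46 to 0.76 on controls. Levels here and below are log2 of the processed intensity minus the array's 75th percentile. Because the sets were made from a measured value, genes are given by their ranges in them, with no test.

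Of the 7 tested glial genes 3 followed these sets array by array, and the others did so in part. Sox10, Pmp22 and Mbp lay higher on all 6 arrays with the higher Avil than on any with the lower. Among all genes with a value on every array, 7.92% of 19315 lay higher in this way and 7.85% lay lower, while 0 of the tested glial genes lay lower. For S100b 5 of the 6 higher-Avil arrays lay above every lower-Avil array, for Erbb3 and Fabp7 4 did, and for Foxd3 2 did.

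**Figure D1:**
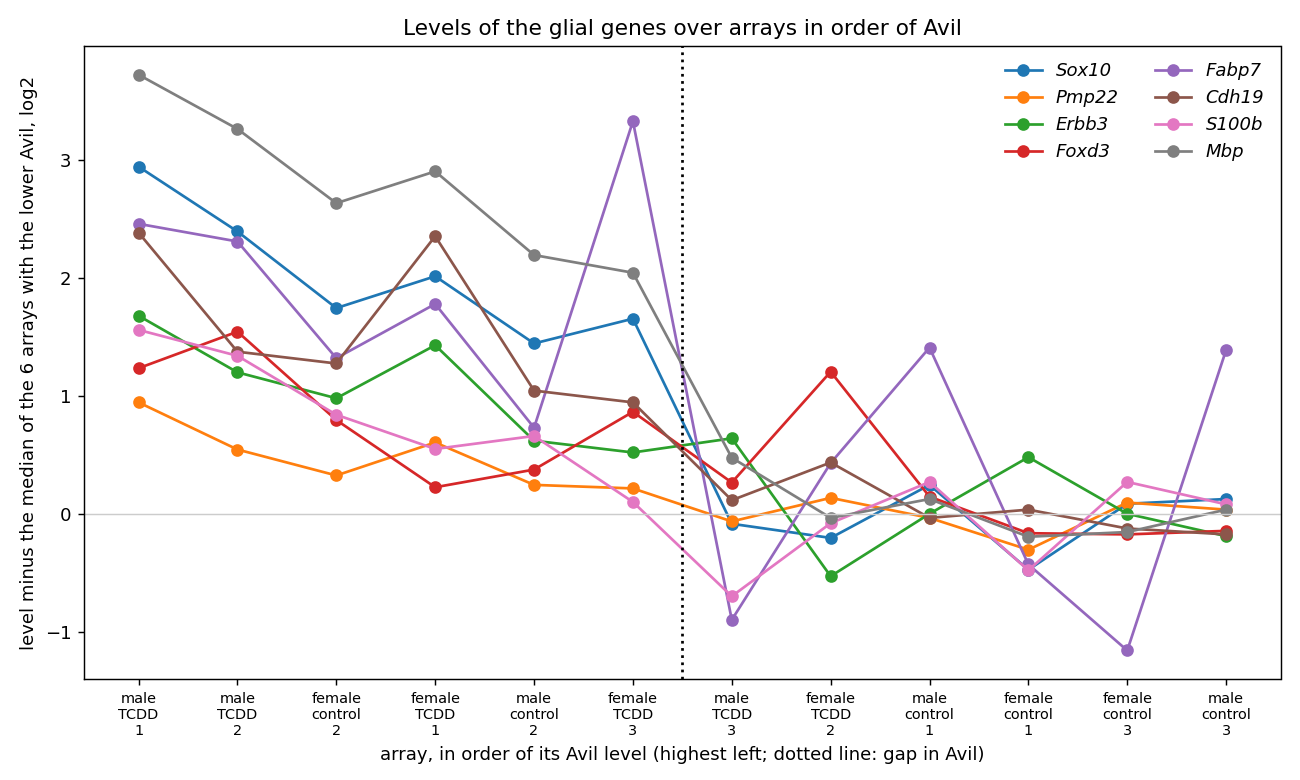
The level of each glial gene on each array, as a log2 difference from the median of the 6 arrays with the lower Avil, with arrays in order of their Avil level from the highest at the left; the dotted line marks the gap in Avil. Sox10, Mbp and Pmp22 lie higher at every point left of the line than at any point right of it, and Fabp7 and Foxd3 have high points on both sides; Cdh19 was well above background on only 2 of the arrays.

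Exposure to TCDD gave no call for any of these genes. In limma fits on all genes, 0 of the 7 passed an adjusted p of 0.05 in males, where 0.0103% of all genes passed, or in females, where 0.0103% did. Nor did any pass over both sexes (0.0207% of all genes) or for the difference between the sexes (0%). At an unadjusted p below 0.05 there were 0 of 7 in males (9.34% of all genes), 0 in females (2.68%), 1 over both sexes (6.46%) and 0 for the difference between the sexes (4.46%). The 1 was Foxd3, which entered the tests only through exposed arrays, so nothing is read from that count. The measured difference lay above 0 for 7 of 7 in males (48.6% of all genes), for 5 of 7 in females (40.8%), for 7 of 7 over both sexes (44.2%), and for 6 of 7 in the male effect minus the female effect (57.0%). Over these 7 the medians for males, females and both sexes were 0.89, 0.61 and 0.75 on the log2 scale, against -0.01, -0.04 and -0.02 over all genes tested. Each of these medians over the 7 was the value of Foxd3 itself, so nothing is read from them either. Foxd3 is also in each count above 0, although no control array had it well above background. The arrays with the higher Avil were 4 of 6 exposed and 2 of 6 controls, and the part of this imbalance in the differences was not tested; the differences within each set are given further on. In such bulk samples, more cells of a type and more RNA per cell cannot be told apart.

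**Figure D2:**
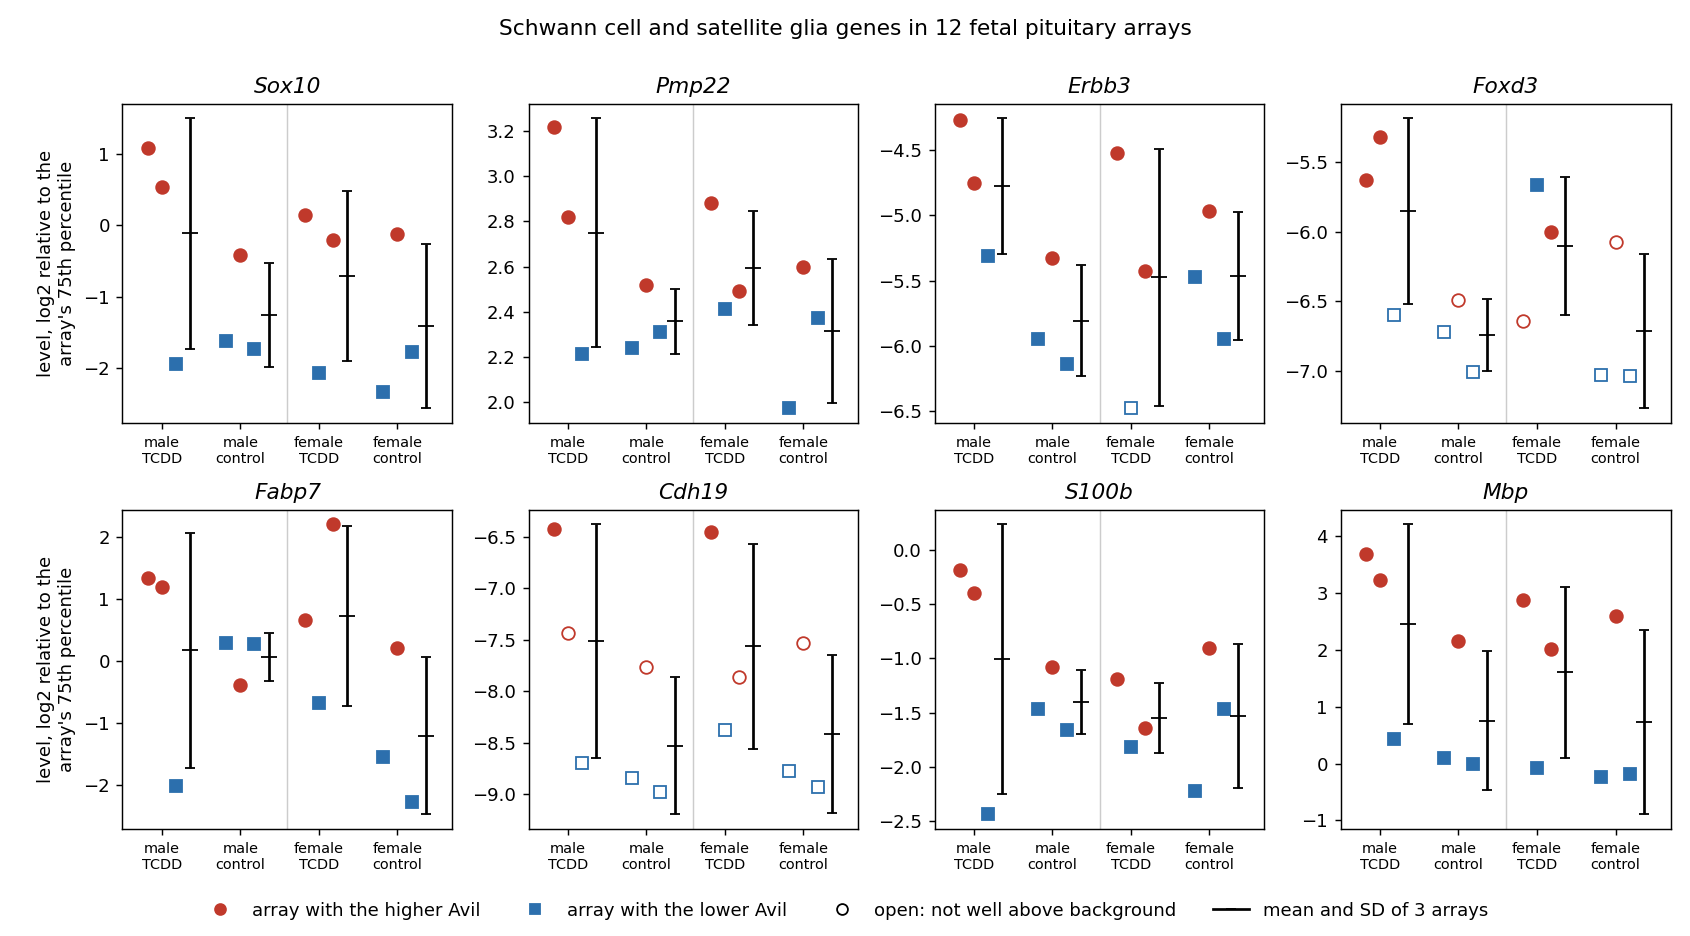
Level of each gene on each array (log2, with the array's 75th percentile subtracted), by group, with the mean and SD of 3 arrays as a bar beside the points; red circles are arrays with the higher Avil, blue squares those with the lower, and open symbols are probes not well above background. Within each group the red points of Sox10, Pmp22 and Mbp lie above the blue ones, and within each sex the exposed and control points overlap for every gene except Erbb3 in males.

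Sox10 encodes the transcription factor that peripheral glia need throughout development. Its probe (A_44_P447394, rn4 chr7:117138840-117138899, minus strand) had processed intensities of 2385, 1518 and 265 in exposed males, against 305, 702 and 350 in control males. It had 1218, 225 and 1082 in exposed females, against 192, 1046 and 271 in control females. Each exposed group thus held 2 high arrays and 1 low one, and each control group 1 high and 2 low. The groups overlapped in both sexes. The mean level was -0.11 ± 1.62 in exposed males and -1.26 ± 0.73 in control males (SD, n = 3 each). In exposed females it was -0.71 ± 1.19, and in control females -1.41 ± 1.15 (SD, n = 3 each). The difference was 1.15 in males (standard error 0.88, limma adjusted p = 0.549) and 0.70 in females (standard error 0.88, adjusted p = 1), neither of which passed. On the arrays with the higher Avil Sox10 ran from 702 to 2380, and on those with the lower from 192 to 350.

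Foxd3 encodes a forkhead transcription factor of early neural crest cells and their glial descendants. It was dim: the intensities were 22.8, 26.2 and 10.5 in exposed males, against 8.89, 10.4 and 9.09 in control males. In exposed females they were 11, 18.7 and 19.6, against 7.42, 16.9 and 7.04 in control females. The probe (A_44_P142117, rn4 chr5:120334911-120334970, plus strand) lay well above background on 4 of 6 exposed arrays, male TCDD 1 and 2 and female TCDD 2 and 3, and on 0 of 6 controls. Of all genes tested 0.145% were detected in this way on 4 or more exposed arrays and 0 controls, and 0.0465% in the opposite way. Foxd3 entered the tests only through those exposed arrays. The flag parted close values: the scaled level was -6.07 on female control 2, not flagged, and -6 on female TCDD 3, flagged. In each sex 2 of the 3 exposed arrays measured it and 0 of the 3 controls did. Its fitted differences, here and below, are therefore not read as folds. The mean levels as read were -5.85 in exposed males and -6.74 in control males (limma adjusted p = 0.507), and -6.10 in exposed females and -6.72 in control females (adjusted p = 1). Over both sexes the fitted difference was 0.75 (standard error 0.29, adjusted p = 0.67) and did not pass, and it rests on values not well above background in every control. The order of arrays was not that of Sox10: female TCDD 2, an array with low Avil and low Sox10, had the third highest level of Foxd3. With normexp background correction, which compresses dim signals, the fitted difference over both sexes was -0.03.

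The promoter of Foxd3 is shown because Foxd3, like Cdh19, was flagged well above background on exposed arrays only. This choice was made after its values were seen, and 1 control lay close to a flagged array, as given above. The receptor that TCDD binds recognises a short core in DNA, and whether it acts on Foxd3 was not tested. The window runs from 250 bases before to 50 bases after the RefSeq start on the GRCr8 build, chr5:119450282-119450581, plus strand, and capitals mark the core GCGTG or its reverse complement CACGC.
Foxd3 promoter: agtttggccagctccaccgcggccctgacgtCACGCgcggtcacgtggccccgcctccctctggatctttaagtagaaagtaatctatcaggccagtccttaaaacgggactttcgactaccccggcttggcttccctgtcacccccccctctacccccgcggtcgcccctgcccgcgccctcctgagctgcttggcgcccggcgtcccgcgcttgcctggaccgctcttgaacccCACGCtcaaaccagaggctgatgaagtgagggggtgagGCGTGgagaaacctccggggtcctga
The core was found 3 times in this window, with first bases at positions -219 and -14 on the minus strand and 25 on the plus strand, counted from the start, where -1 is the last base before it. Of 33469 such windows of the rat genome 29.7% hold it at least once on either strand, and the mean is 0.46 matches per window. The bases G and C make up 65.0% of the Foxd3 window. A SOX core (ACAAAG or ACAATG, either strand), held by 29.1% of the windows, was found 0 times here. A match in letters is a description of the sequence only. Windows were read for 6 of the 8 genes, and those of Pmp22, Fabp7, Cdh19 and S100b held 0 matches of either core.

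Erbb3 encodes the neuregulin receptor through which axons act on Schwann cell precursors. Its probe (A_64_P080643, rn4 chr7:1858095-1858154, minus strand) had intensities of 58.3, 38.9 and 25.7 in exposed males, against 15.2, 23.3 and 16.5 in control males. In exposed females it had 47.7, 10.6 and 29.1, the value of 10.6 not well above background, against 21.9, 36.2 and 15.1 in control females. In males all 3 exposed arrays lay above all 3 controls, as was the case for 8.39% of all genes, whereas in females the groups overlapped for all 7 tested glial genes (1.44% of all genes had every exposed female above every control). The difference was 1.03 in males (standard error 0.48, limma adjusted p = 0.507) and -0.01 in females (standard error 0.48, adjusted p = 1). The sexes were compared directly, and the male effect minus the female effect was 1.04 (standard error 0.68, adjusted p = 0.883). None of these passed. Erbb3 ran from 23.3 to 58.3 on the arrays with the higher Avil and from 10.6 to 25.7 on those with the lower.

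Cdh19 encodes cadherin 19, an adhesion protein of Schwann cell precursors. Its intensities were 13.1, 6.08 and 2.47 in exposed males, against 2.05, 4.33 and 2.31 in control males. They were 12.6, 2.86 and 5.38 in exposed females, against 2.23, 6.15 and 1.91 in control females. Only male TCDD 1 and female TCDD 1, at 13.1 and 12.6, were well above background, so the probe (A_64_P052815, rn4 chr13:18148715-18148774, minus strand) did not pass the filter. With no filter on dim probes it entered the fit, and 0 of 8 glial genes passed in any comparison. By Avil it ran from 4.33 to 13.1 on the higher arrays and from 1.91 to 2.86 on the lower, and most of these values, not being well above background, have no firm order.

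Fabp7 encodes a fatty acid binding protein found in satellite glia and Schwann cell precursors, and also in radial glia of the brain. Its probe (A_43_P12450, rn4 chr20:36815975-36816034, plus strand) had intensities of 2852, 2382 and 252 in exposed males, against 1148, 714 and 1411 in control males. It had 1730, 589 and 5791 in exposed females, against 332, 1312 and 191 in control females. Its highest array was female TCDD 3 and its lowest female control 3. Of the 6 arrays with the higher Avil, female TCDD 3 had the lowest scaled Avil level, though not the lowest Avil intensity. The mean level was 0.73 ± 1.45 in exposed females and -1.21 ± 1.28 in control females (SD, n = 3 each). The difference was 1.94 in females (standard error 0.99, limma adjusted p = 1), the largest of the 7 genes there, and 0.11 in males (standard error 0.99, adjusted p = 0.958). The male effect minus the female effect was -1.82 (standard error 1.39, adjusted p = 0.883), and none passed. Male control 1 and 3, with low Avil and Sox10 at 305 and 350, had Fabp7 at 1148 and 1411, above male control 2 at 714.

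S100b encodes a calcium-binding protein that marks glia and folliculostellate cells alike. Its brighter probe (A_64_P109327, rn4 chr20:12791789-12791848, minus strand) had intensities of 994, 793 and 188 in exposed males, against 339, 444 and 370 in control males. It had 482, 268 and 402 in exposed females, against 209, 611 and 336 in control females. The lowest of all was an exposed male, and the groups overlapped in both sexes. The difference was 0.39 in males (standard error 0.54, limma adjusted p = 0.717), -0.02 in females (standard error 0.54, adjusted p = 1) and 0.19 over both (standard error 0.38, adjusted p = 0.852), the smallest of the 7 genes over both sexes. A second probe of S100b (A_43_P15530, rn4 chr20:12791899-12791958, minus strand), printed in 10 spots on each array, ran from 2.48 to 7.05 and lay well above background on 0 of 12 arrays. S100b at its brighter probe ran from 402 to 994 on the arrays with the higher Avil and from 188 to 370 on those with the lower, and on the scaled level female TCDD 3 at -1.64 lay within the range of the lower arrays.

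Pmp22 encodes a small membrane protein of compact peripheral myelin that is also made outside the nervous system. Its probe (A_44_P353515, rn4 chr10:49335537-49335596, plus strand) was bright on every array, with intensities of 10454, 7396 and 4728 in exposed males, against 4415, 5391 and 5786 in control males. In exposed females it had 8096, 5046 and 7047, against 3797, 6913 and 4804 in control females. Its whole range over the 12 arrays was 2.38-fold, the narrowest of the tested glial genes, against 15.1-fold for Mbp. The difference was 0.39 in males (standard error 0.25, limma adjusted p = 0.52) and 0.28 in females (standard error 0.25, adjusted p = 1), and over both sexes it was 0.34 (standard error 0.17, adjusted p = 0.67). The scaled level ran from 2.49 to 3.22 on the arrays with the higher Avil and from 1.97 to 2.41 on those with the lower, although the unscaled intensities, 5390 to 10500 and 3800 to 5790, overlapped.

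Mbp encodes myelin basic protein, which binds the inner faces of the myelin membrane in peripheral and central myelin. Its brighter probe (A_64_P017163, rn4 chr18:79057264-79057323, plus strand) had intensities of 14481, 9838 and 1385 in exposed males, against 1001, 4191 and 1166 in control males. It had 8027, 901 and 5029 in exposed females, against 831, 6907 and 815 in control females. As with Sox10, each exposed group held 2 high arrays and 1 low one and each control group 1 high and 2 low, and the groups overlapped in both sexes. The mean level was 2.45 ± 1.76 in exposed males and 0.75 ± 1.22 in control males (SD, n = 3 each). It was 1.60 ± 1.51 in exposed females and 0.73 ± 1.62 in control females (SD, n = 3 each). The difference was 1.70 in males (standard error 1.11, limma adjusted p = 0.524), the largest of the 7 genes there, and 0.87 in females (standard error 1.11, adjusted p = 1). Neither passed. On the arrays with the higher Avil Mbp ran from 4190 to 14500, and on those with the lower from 815 to 1380.

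The other probe of Mbp gave a different picture. It lies upstream (A_64_P017160, rn4 chr18:79026442-79026501, plus strand) and was designed on another transcript. It had intensities of 77.6, 81.6 and 63.1 in exposed males, against 43.9, 53.6 and 57.6 in control males. It had 71.5, 42 and 91.6 in exposed females, against 65.3, 73.1 and 40.7 in control females. In males the exposed arrays lay above the controls at this probe, as they did for 8.39% of all genes at the probe tested. In females the groups overlapped. Its highest array was 1.78-fold above its lowest, against 15.1-fold at the brighter probe. The difference was 0.44 in males (standard error 0.22, limma adjusted p = 0.507 over all kept probes) and 0.25 over both sexes (standard error 0.16, adjusted p = 0.673), and neither passed. By Avil it ran from 53.6 to 91.6 on the higher arrays and from 40.7 to 65.3 on the lower, and 3 of the 6 higher arrays lay above every lower one.

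Mbp has 2 annotated starts in the promoter table, and both windows are shown because its 2 probes disagree; the files do not pair a probe with a start. Both are RefSeq windows on GRCr8, plus strand, at chr18:78130402-78130701 and chr18:78209995-78210294. Capitals mark GCGTG in the first and the SOX core (ACAAAG or ACAATG, on either strand) in the second.
Mbp start 1: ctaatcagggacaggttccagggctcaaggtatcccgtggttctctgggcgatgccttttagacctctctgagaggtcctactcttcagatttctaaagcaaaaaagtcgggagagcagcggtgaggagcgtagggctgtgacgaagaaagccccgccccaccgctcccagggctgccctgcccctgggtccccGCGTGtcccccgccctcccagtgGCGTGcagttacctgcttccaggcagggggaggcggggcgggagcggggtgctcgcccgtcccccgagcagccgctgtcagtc
Mbp start 2: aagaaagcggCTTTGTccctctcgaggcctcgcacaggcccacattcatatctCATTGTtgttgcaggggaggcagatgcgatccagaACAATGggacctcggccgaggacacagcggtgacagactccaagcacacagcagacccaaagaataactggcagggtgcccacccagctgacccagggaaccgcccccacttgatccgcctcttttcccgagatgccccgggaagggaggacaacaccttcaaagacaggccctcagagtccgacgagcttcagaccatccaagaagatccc
The first window held GCGTG 2 times, with first bases at positions -56 and -33, and the SOX core 0 times. The second held the SOX core 3 times, at positions -240 and -197 on the minus strand and -162 on the plus strand, and GCGTG 0 times. No match of one motif overlapped a match of the other. These are matches in letters, and the shares of all windows that hold either core are those given above for Foxd3.

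**Figure D3:**
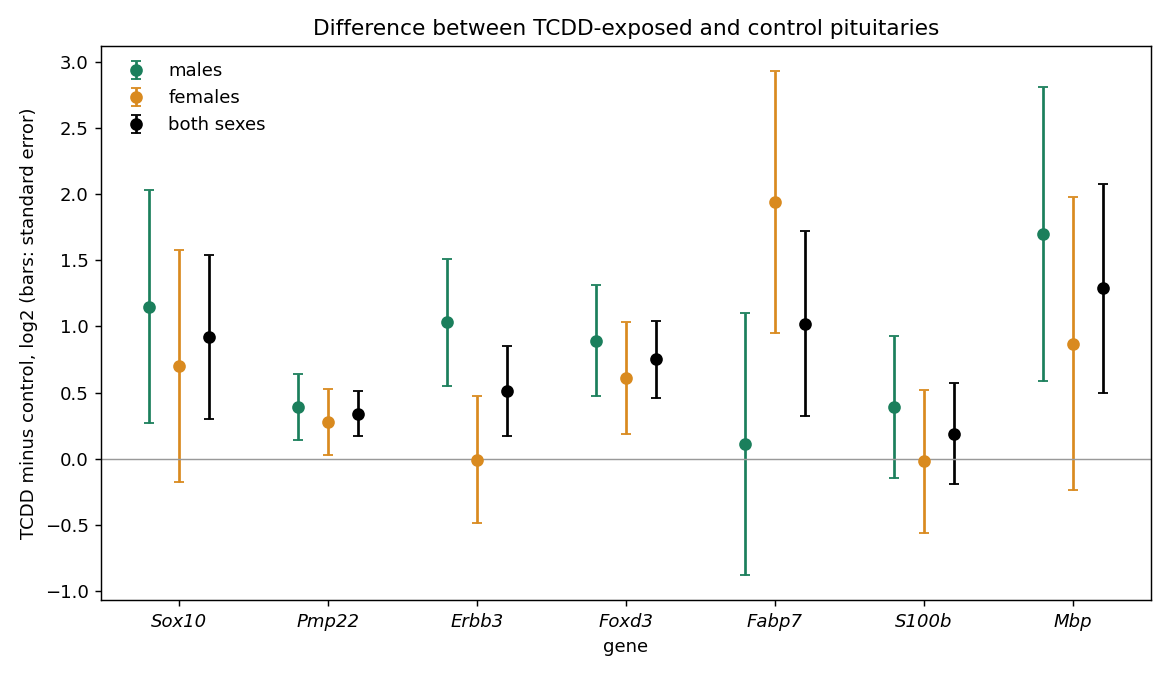
Log2 difference of TCDD-exposed minus control pituitaries for the 7 tested glial genes, for each sex and over both, with bars of 1 standard error from the limma fit. The male points lie between 0.11 and 1.70 and the female points between -0.02 and 1.94, and no adjusted p passed 0.05. Foxd3 was not well above background on any control array.

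The same differences were then taken from other sets of arrays, chosen after the Avil levels were known. Over both sexes the difference of Sox10 was 0.92 on all 12 arrays (standard error 0.62), 0.66 on the 6 arrays with the higher Avil, and -0.14 on the 6 with the lower. For Mbp it was 1.29 on all arrays (standard error 0.79), 0.57 on the higher and 0.26 on the lower. For Pmp22 it was 0.34, 0.29 and 0.09 in the same order of sets, and for Erbb3 0.51, 0.41 and -0.02. These 4 genes thus had a smaller difference within each set than over all arrays. Fabp7 had 1.02 over all arrays, 1.44 within the higher set and -0.54 within the lower, and S100b had 0.19, 0.14 and -0.43. Foxd3 had 0.75 over all arrays, 0.39 within the higher set and 0.82 within the lower. Within the lower set only female TCDD 2 had Foxd3 well above background, and no control did in either set. Nothing is read from these values of Foxd3. With the Avil level as a covariate on all 12 arrays the differences were 0.12 for Sox10, 0.15 for Pmp22, 0.13 for Erbb3, 0.57 for Foxd3, 0.33 for Fabp7, -0.23 for S100b and 0.24 for Mbp. None passed in any of these limma fits. The higher set holds only 2 controls, 1 of each sex, and the lower only 2 exposed arrays, so a group of 1 array is taken to vary like the others there.

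**Figure D4:**
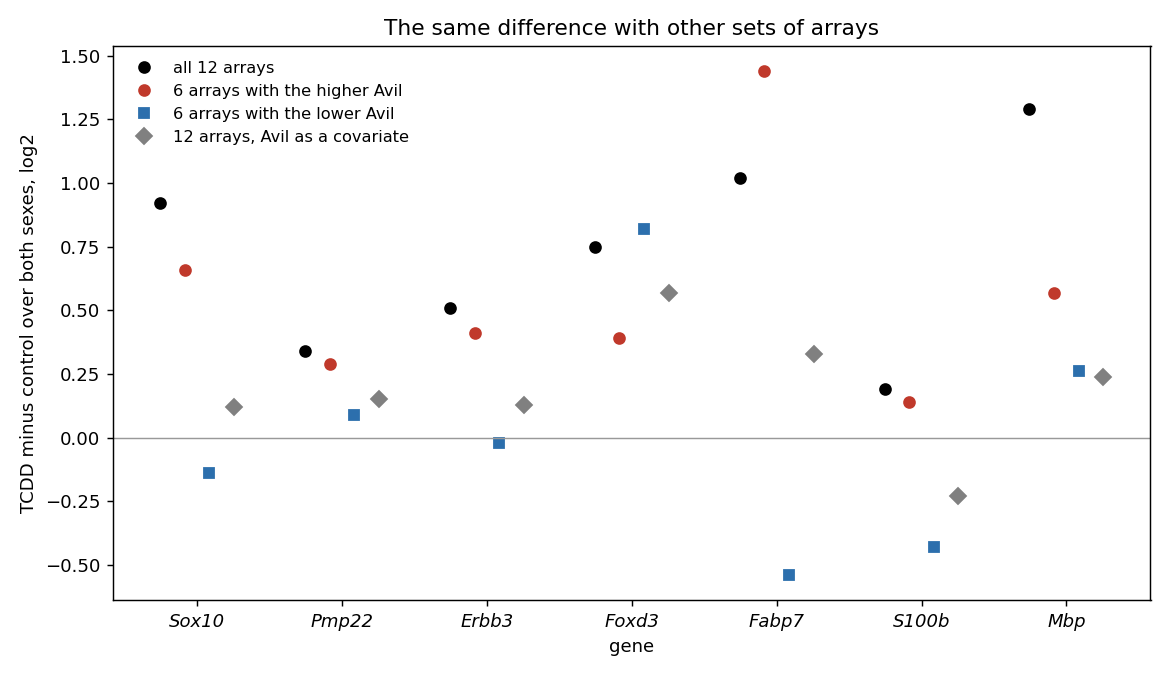
Log2 difference of TCDD-exposed minus control pituitaries over both sexes for each gene, on all 12 arrays, on the 6 arrays with the higher Avil, on the 6 with the lower, and on all 12 with Avil as a covariate. The difference of Sox10 is 0.92, 0.66, -0.14 and 0.12 in that order, and that of Foxd3 is 0.75, 0.39, 0.82 and 0.57. Foxd3 was not well above background on any control array.

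Slide was the other feature of the arrays that moved with exposure. With slide as a fixed block the differences over both sexes were wider: 1.70 for Sox10, 0.54 for Pmp22, 1.00 for Erbb3, 1.03 for Foxd3, 2.15 for Fabp7, 0.57 for S100b and 2.36 for Mbp (limma adjusted p between 0.193 and 0.471). Within slide 1, in males, they ran from 0.86 for Pmp22 to 2.94 for Mbp (adjusted p between 0.0708 and 0.122). There male TCDD 1 is the only exposed array, and it had the highest Avil of all 12 and the highest level of Sox10, Pmp22, Erbb3, Cdh19, S100b and Mbp. Within slide 3, in females, with a single control, they ran from -0.08 for S100b to 3.01 for Fabp7 (adjusted p between 0.97 and 0.982). Slide 2 holds exposed males and control females only, so it gives no value of its own. With slide as a fixed block the male effect is therefore that within slide 1, and the female effect that within slide 3. For Sox10 these were 2.34 and 1.06 in either kind of fit. The wider differences thus rest on male TCDD 1 as the only exposed male and female control 3 as the only control female.

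Other genes of the glial programme were read from lists of known function. Of 13 tested genes of peripheral myelin and Schwann cell structure, 0 passed in any comparison. The difference over both sexes lay above 0 for 13 of 13 (44.2% of all genes), with a median of 0.76. Of the 13, 7 followed the Avil sets, lying higher with Avil as 7.92% of all genes did. The smallest p of the list was that of Prx (periaxin, which links the Schwann cell's membrane to its skeleton), with a difference of 0.87 over both sexes (standard error 0.22, limma adjusted p = 0.632). It was followed by Mcam, an adhesion molecule (0.44), the gap junction gene Gjc3 and Mag, a myelin-associated adhesion protein (0.44), each at an adjusted p of 0.67. Gjc3 lay well above background on only 3 of 12 arrays, so its size is not given. Prx overlapped between the Avil sets, from 33.8 to 142 on the arrays with the higher Avil and from 32.1 to 55.6 on those with the lower.

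Of 14 tested regulators of the neural crest and Schwann lineage 0 passed. The difference over both sexes lay above 0 for 12 of 14 (44.2% of all genes), with a median of 0.38. Of the 14, 4 followed the Avil sets (7.92% of all genes). These 4 were Ngfr, a neurotrophin receptor of immature Schwann cells (1960 to 7230 on the higher arrays and 255 to 396 on the lower), the secreted Schwann cell ligand Lgi4 (277 to 803 and 76 to 142), the hedgehog ligand Dhh (137 to 486 and 47 to 67.2) and the endothelin receptor Ednrb (683 to 1650 and 319 to 486). Egr2, the factor that switches on myelination, was dim and lay well above background on only 8 of 12 arrays. It overlapped, from 10.1 to 44.2 and from 11.7 to 19.5, and had a difference of 0.71 over both sexes (limma adjusted p = 0.67). Notch1 and Pou3f1, both regulators of Schwann cell differentiation, differed by 0.22 and 0.33 (adjusted p = 0.67 for each). Sox2 overlapped as well, from 3660 to 5100 and from 3050 to 6910.

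Nrg1 was the neuregulin measured beside Erbb3. Of 7 tested genes of neuregulin and ErbB signalling 0 passed. Over both sexes 5 of 7 had a difference above 0 (44.2% of all genes), with a median of 0.05. By Avil 0 lay higher (7.92% of all genes) and 2 lay lower (7.85%). The 2 were Erbb2, the partner receptor of Erbb3, and Errfi1, an inhibitor of ErbB receptors, both judged on the scaled level. Nrg1, the neuregulin that axons present to Schwann cells, ran from 117 to 306 on the higher arrays and from 69 to 129 on the lower. Its difference was 0.67 in males (limma adjusted p = 0.507), -0.27 in females (adjusted p = 1) and 0.20 over both sexes (adjusted p = 0.745), and the male effect minus the female effect was 0.95 (adjusted p = 0.883), so none passed. The mean level of the list ran from -1.63 to -1.48 on the higher arrays and from -1.61 to -1.43 on the lower.

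Of 9 tested satellite glia and glial support genes 0 passed. Over both sexes 6 of 9 had a difference above 0 (44.2% of all genes), with a median of 0.17. By Avil 2 lay higher (7.92% of all genes). These were the lipid carrier Apoe (14600 to 27900 and 7500 to 12500) and Ttyh1, a channel-like membrane protein. Slc1a3, the glial glutamate transporter that satellite glia carry, had a difference of -0.38 (adjusted p = 0.67) and overlapped, from 1440 to 3480 and from 2050 to 4210.

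Other cells that share single glial genes were read in the same way, and 0 of their genes passed in any comparison. Beside the counts by Avil that follow, 7.92% of all genes lay higher with Avil and 7.85% lay lower. Of 10 oligodendrocyte genes 0 followed Avil, and Olig2, which defines that lineage, ran from 10 to 69.1 on the higher arrays and from 12.4 to 62 on the lower. Ugt8 of the same list overlapped only narrowly, from 35.1 to 152 on the higher arrays and from 15.7 to 35.6 on the lower. The mean level of the oligodendrocyte list was -3.53 to -2.90 on exposed arrays and -3.68 to -3.20 on controls. Of 8 melanocyte genes 0 followed Avil, and their mean level was -2.90 to -1.82 on exposed arrays and -2.80 to -2.19 on controls. Of 8 genes of astroglia and pituicytes 1 followed Avil, the water channel Aqp4 (146 to 482 and 92.1 to 135), and the mean level was -2.52 to -2.12 on exposed arrays and -2.46 to -2.12 on controls. Of 11 folliculostellate and progenitor genes 0 lay higher with Avil and 1 lay lower, the chemokine Cxcl12. Of 15 endocrine genes 0 were seen to follow Avil, and Pomc could not be judged because it did not have a value on every array. Of the 15, 1 had a difference above 0 over both sexes (44.2% of all genes), with a median of -0.46. The mean level of the endocrine list was -1.56 to -0.09 on exposed arrays and -0.40 to 0.17 on controls. Gfap, of astroglia, and Sox9 had no probe that passed the filter. The part of these cells in the glial values was not tested.

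Sox10's profile over the 12 arrays was set beside that of every named gene with a value on all arrays. The measure was the SD over arrays of the log2 difference between the gene and Sox10, which is small where the fold between them is the same on every array. It was 1.24 at the median of 13740 genes, and the SD of Sox10 itself was 1.17. The 10 smallest values belonged to RGD1559747 (0.128), Olfm1 (0.144), Aak1 (0.165), Ank1 (0.174), Igsf11 (0.176), A3galt2 (0.188), Prkar1b (0.191), Pcbp3 (0.196), Tmprss5 (0.199) and L1cam (0.2). L1cam, an adhesion molecule of axons and Schwann cells, was the one gene of the glial lists among them. Lgi4 ranked 27, Dhh 34 and Mbp 206. Genes of the sensory neuron list lay as near: Ntrk2 ranked 128, Elavl4 194, Pirt 222, Scn9a 245 and Runx1 255. Further off, S100b ranked 540, Erbb3 632, Pmp22 1035, Foxd3 1244 and Fabp7 1294. Avil itself ranked 5196, since its own range was wider, with an SD of 2.28 on the log2 scale. All genes are read from the same 12 RNA samples, so likeness of profile is a description of these arrays.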

How the data were processed

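Per the labels' protocols, total RNA from pituitaries was amplified, given a Cy3 label and put on oligonucleotide arrays of the rat genome. Linear spot intensity values come from the deposited scanner files, written by Agilent Feature Extraction 10.7.1.1 per the file headers (9.5.1.1 per the submitters' processing notes), which background-corrects the processed intensity. Probe positions are on rn4 per the file headers, and no annotation of that build was used to place probes in exons or UTRs.

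Control spots and outlier flags were left out, log2 of the processed intensity was taken, each array's 75th percentile subtracted, and spots of a probe averaged. Probes well above background on at least 3 of 12 arrays with at least 10 values were kept (22426 of 30367), and the brightest of a gene's kept probes stood for it. Names came from RefSeq by accession (18006 probes) or symbol (3213), otherwise from the files (9148). The tests used limma 3.58.1 (R 4.3.3) with 1 mean per group over the 12 arrays and a variance trend with intensity, and p-values were adjusted by Benjamini-Hochberg over 19347 genes. Levels of different probes were not compared as amounts of RNA. They were averaged for the mean level of a list. For the likeness to Sox10 or Fabp7 they were subtracted array by array.

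Alternatives were normexp with an offset of 50, quantile normalization, the authors' deposited value table (linear intensity, the median 83.5 in every column, Spearman correlation 1 with the scanner values; its between-array normalization is inferred from its equal medians, and values of one colour have no direction), other probe filters, slide, replicate number, Avil level, and arrays left out. The number of arrays limits the precision. The members, lists and the split by Avil were chosen with earlier results of these data known. Named genes were all 8 members; of each list, those that passed, up to 4 with the smallest p over both sexes, and fixed names; and the 10 genes nearest to Sox10. Values of some list genes are not reported here. Further list genes that followed Avil were named after their values were seen.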

Additional observations from a re-analysis of the deposited data

Results flagged for a closer look

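Signal on exposed arrays above the controls was seen at 2 probes that did not enter the fit by gene. Cdh19, whose probe was too dim to pass the filter, reached 13.1 on male TCDD 1 and 12.6 on female TCDD 1, both well above background, while its controls ran from 1.91 to 6.15 and were not. The Mbp probe that was not used for the gene, A_64_P017160, reached 91.6 on female TCDD 3, 81.6 on male TCDD 2 and 77.6 on male TCDD 1, while its controls ran from 40.7 to 73.1. The remaining exposed arrays had values within the range of the controls at each probe.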

How the results depend on the processing

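None of the 7 tested glial genes passed in any comparison under any alternative run, and the smallest adjusted p was 0.0708. Normexp gave Foxd3 -0.01 in males and -0.04 in females, and -0.03 over both sexes. Quantile normalization gave 0.04 for Erbb3 and 0.00 for S100b in females and -0.03 for the sex difference of Foxd3, and the authors' deposited table gave 0.04 and -0.02 for Erbb3 in females and the sex difference of Foxd3. Erbb3 in females was 0.47 with slide as a fixed block and within slide 3, and 0.05 with slide as a random block. With Avil as a covariate Fabp7 was -0.73 and S100b -0.11 in males, and S100b -0.23 over both. Without the 6 higher-Avil arrays the values in males were -0.27 for Sox10, -0.06 for Pmp22, -2.30 for Fabp7 and -0.88 for S100b, and in females -0.02 for Sox10 and 0.02 for S100b. Over both sexes they were -0.14 for Sox10, -0.02 for Erbb3, -0.54 for Fabp7 and -0.43 for S100b, and the sex differences were -0.25 for Sox10, -0.30 for Pmp22, -1.11 for Foxd3 and -0.90 for S100b. On only those 6 arrays Foxd3 was -0.25 and Mbp -0.16 in females, and the sex difference of Fabp7 was 0.43. Leaving out each array in turn gave -0.47 to 1.21 for Fabp7 and -0.02 to 1.11 for S100b in males, -0.49 to 0.49 for Erbb3 and -0.37 to 0.29 for S100b in females, and -0.02 to 0.54 for S100b over both sexes. For the sex difference it gave -0.23 to 1.37 for Sox10, -0.12 to 0.38 for Pmp22, -0.04 to 0.65 for Foxd3 and -0.11 to 1.84 for Mbp. The cause of these changes was not tested. Replicate numbers are shared between groups but did not pair the samples: deviations of same-numbered arrays correlated from -0.7 to 0.75, with 8 of 18 over 0.1, and 5 of 12 arrays correlated best with their own number. With the replicate number as a block the differences stayed as they were and 0 glial genes passed, and 2 of all genes passed over both sexes, against 4 without it. Among all genes the alternatives called 0 to 276 in males, against 2, 0 to 3 in females, against 2, 0 to 15 over both sexes, against 4, and 0 to 6 for the sex difference, against 0. The 276 came within slide 1, where male TCDD 1 is the only exposed array, and the 15 and the 6 with slide as a fixed block. Leaving out the array of male TCDD 1 gave 9 over both sexes, and leaving out either male TCDD 3 or female control 1 gave 7.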

Other observations

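Among the 7 tested members Fabp7 was the least like Sox10 by the measure used in the report, though genes of the wider glial lists ranked further off. The same measure was therefore taken around Fabp7 itself, a choice made after its values were seen. The nearest genes were B3gat2 (SD of the log2 difference 0.592), Smr3b (0.685), Htr7, a serotonin receptor (0.727), Hes5, a Notch target of neural progenitors (0.73), and Bcan, which encodes brevican, a proteoglycan of brain extracellular matrix (0.748). These SDs are wide beside the 0.128 to 0.2 of the 10 genes nearest to Sox10, and the SD of Fabp7 itself was 1.38. Hes5 ran from 3.47 to 49.1 in processed intensity, and Bcan from 99.3 to 778, with its highest array male TCDD 2 and its lowest female control 1. Fabp7 had its highest array in female TCDD 3 and its lowest in female control 3. No test was made of these profiles.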
